A study of Mus musculus with 6 samples.

Results

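The 8 MHC class II genes measured here were H2-Aa, H2-Ab1, H2-Eb1, H2-DMa, H2-DMb1, H2-DMb2, Cd74 and Ciita. They were chosen by name and make up 8 of the 16557 genes in the count tables of 6 mouse rhabdoid tumors, and all 8 were listed in every table. Rhabdoid tumors are malignancies of early childhood defined by loss of SMARCB1, part of the SWI/SNF complex that moves nucleosomes. Live cells from each tumor were sorted and their RNA 3′ ends sequenced cell by cell, so that every value below is a number of unique molecular identifiers (UMIs), each of which marks 1 captured RNA molecule. Cells were grouped into kinds by their other genes, and the question was which kinds carried class II RNA, in which tumors, and whether the tumor cells carried more of it than the RNA of other cells that reaches every droplet.

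The MYC spinal group held 3 tumors, numbered 1, 2 and 3, all Rosa26-creERT2::Smarcb1fl/fl, at the age of 19, 26 and 17 weeks. The group of extracranial rhabdoid tumors (eRT) held eRT 1 (Rosa26-creERT2::Smarcb1fl/fl, gland, 17 weeks), eRT 2 (Sox2-creERT2::Smarcb1fl/fl, jaw, 29 weeks) and eRT 3 (Sox2-creERT2::Smarcb1fl/fl, shoulder, 22 weeks). All mice were C57BL/6, and in all of them the floxed Smarcb1 alleles were recombined after 1 tamoxifen dose of 50 mg/kg given to the pregnant mother at day 6.5. The Rosa26 promoter is active in nearly every cell type and the Sox2 promoter in early embryonic and neural stem cells. Sox2-creERT2 tumors were in the eRT group only, so that group and Cre line were partly confounded. Each tumor came from a separate mouse, and there was no tumor-free tissue. Tests between the groups therefore measure the spread between 3 and 3 animals. Tests between kinds of cells compare sums within the same tumor.

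MHC class II molecules are pairs of an α and a β chain that present peptides to CD4+ T cells, and in mice of this strain the chains are encoded by H2-Aa, H2-Ab1 and H2-Eb1, while the H2-Ea gene is not functional. Newly made pairs are held by the invariant chain, the product of Cd74, which is cut down by lysosomal proteases until the DM molecule, a pair of H2-DMa with H2-DMb1 or H2-DMb2, exchanges its last piece for a peptide. CIITA, the product of Ciita, is the master co-activator of these genes and binds to a complex of RFX, NF-Y and CREB on their promoters. Dendritic cells, macrophages and B cells carry class II constitutively or on stimulation by interferon γ, and mouse T cells, NK cells and neutrophils largely lack it.

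In GRCm38 (mm10), 6 of the genes lie within the MHC on chromosome 17: H2-DMa at 34119541 to 34139101, H2-DMb2 at 34143307 to 34151555, H2-DMb1 at 34153072 to 34160230, H2-Ab1 at 34257689 to 34269419 and H2-Eb1 at 34305867 to 34316674 on the plus strand, and H2-Aa at 34282744 to 34287823 on the minus strand. Ciita lies on chromosome 16 at 10480059 to 10528418, on the plus strand. RefSeq held promoter windows (250 bases before to 50 after the start) for 5 of the 8 genes. The short stretches that hold the spaced pair of motifs described next are shown because they are shared by 4 genes that differed widely between cell types below. Capitals mark AAC and ATTGG, the inverted CCAAT box to which NF-Y binds, and the letters run 5′ to 3′ on the strand of the gene.
H2-Aa, chr17:34287855-34287914, minus strand: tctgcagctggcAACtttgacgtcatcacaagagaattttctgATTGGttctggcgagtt
H2-Eb1, chr17:34305766-34305824, plus strand: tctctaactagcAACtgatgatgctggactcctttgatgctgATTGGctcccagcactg
H2-DMb1, chr17:34153087-34153146, plus strand: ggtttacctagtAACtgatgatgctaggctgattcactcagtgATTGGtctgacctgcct
H2-DMb2, chr17:34145116-34145175, plus strand: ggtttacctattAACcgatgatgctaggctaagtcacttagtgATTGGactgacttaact
AAC and ATTGG were 27 bases apart in H2-Eb1 and 28 bases apart in the other 3. AAC began 79 (H2-Aa), 89 (H2-Eb1), 92 (H2-DMb1) and 121 (H2-DMb2) bases before the RefSeq start. The pair at either spacing, on either strand, was found in 427 of 32851 promoters (1.3%). Its letters were chosen after the member promoters had been read, so its presence in 4 of 5 is a description. ATTGG alone stood in 37.4% of all promoters and in all 5 member promoters, H2-DMa included, and GCAAC stood in 35.2% and in those of H2-Aa, H2-Eb1 and H2-DMa. H2-DMb1 and H2-DMb2 carried nearly the same stretch, and 94.4% of 1255 aligned bases of their first transcripts were identical. Of the 50-base windows in the last 500 bases, where the reads of this method lie, 92 of 451 (20.4%) in H2-DMb1 and 0 of 451 in H2-DMb2 also occurred in a transcript of the other gene, so some H2-DMb1 reads could not be placed and its counts are uncertain. H2-DMa overlaps Brd2, H2-Eb1 overlaps Gm20513 and Ciita overlaps Dexi on the opposite strand, and whether the counting used the strand is not given in the sources used here. H2-DMa also shares 591 bases with CR974462.3 on the same strand, which strand cannot separate.

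After removal of cells with few genes, 22163 cells were kept, from 1469 to 6740 a tumor, with a median of 916 to 5211 UMIs per cell and 3841706 to 26184224 UMIs per tumor. Smarcb1, the deleted gene, stood at 0 to 6.37 CPM (UMIs of a gene scaled to a common total of UMIs of all genes) in the clusters called tumor cells and at 27.04 to 58.6 CPM in the immune cells of the same tumors. Clusters were called tumor cells by their low Smarcb1, so this gap follows from the rule and is no separate check. The 8 class II genes made up 1.197%, 0.188% and 1.07% of all UMIs in MYC spinal 1, 2 and 3 and 1.28%, 1.54% and 5.24% in eRT 1, 2 and 3. These genes were left out of the clustering, and cell kinds were named from fixed markers that did not include them. Cell kinds differed in size between tumors: macrophage-like cells numbered from 139 (MYC spinal 2) to 2783 (eRT 3) and monocyte-like cells from 30 (MYC spinal 1) to 1961 (MYC spinal 2). Conventional dendritic-like cells, with Xcr1 and Clec9a, were named in the 3 MYC spinal tumors only (18, 39 and 15 cells), and mature dendritic-like cells, with Ccr7 and Fscn1, in groups of 10 or more in MYC spinal 2, 3 and eRT 2. A further cluster in each group was led by Clec10a and Mgl2, genes of type 2 dendritic cells and some macrophages. It did not reach the number of markers needed for a name and is called the Clec10a and Mgl2 cluster.

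Library MYC spinal 2 stood apart. The 9 macrophage markers summed to 5354 CPM in its macrophage-like cells, against 14223 to 103498 CPM in the other 5 tumors, while the 8 monocyte markers stood higher there (6203 CPM) than in any other tumor (546 to 2563 CPM), and its macrophage-like cells had a median of only 518 UMIs. In eRT 3 the border lay the other way: its monocyte-like cells held the highest sum of macrophage markers (37409 CPM, against 344 to 18325 CPM) and the lowest of monocyte markers (1379 CPM, against 1642 to 8686 CPM). The monocyte-like cells of eRT 1 came next, with 18325 CPM of macrophage and 1642 CPM of monocyte markers. The macrophage sum exceeded the monocyte sum in the monocyte-like cells of every tumor but MYC spinal 2. Within each tumor, macrophage-like cells still held the higher macrophage sum and the lower monocyte sum. The labels thus mark a difference of degree in the comparison of these kinds below. Each result that rests on MYC spinal 2 or eRT 3 is given below also without that tumor where that moved it.

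Class II RNA was highest in the Clec10a and Mgl2 cluster and in conventional dendritic-like cells, intermediate in macrophage-like, mature dendritic-like, monocyte-like and B-like cells, and lowest in tumor cells and immature cells. H2-Ab1, which encodes the β chain of the I-A molecule, averaged 19693 ± 3897 CPM (SD, n = 5 tumors) in the Clec10a and Mgl2 cluster and 13918 ± 6419 CPM (n = 3) in conventional dendritic-like cells. It averaged 7154 ± 3738 CPM (n = 6) in macrophage-like cells, 4497 ± 2604 CPM (n = 3) in mature dendritic-like cells, 4085 ± 3862 CPM (n = 6) in monocyte-like cells and 2450.3 ± 2016 CPM (n = 3) in B-like cells. Below these came osteoclast-like cells (1279 ± 1776 CPM, n = 3), neutrophil-like cells (489.7 ± 642 CPM, n = 3), T-like cells (394 ± 388 CPM, n = 6), NK-like cells (243 ± 239 CPM, n = 6), myeloid progenitor-like cells (242 ± 345 CPM, n = 3) and tumor cells (157 ± 144 CPM, n = 6). The spread between tumors was wide. For H2-Ab1 the ranges of every pair of neighbours in this order overlapped, as they did for H2-DMa, H2-DMb1, Cd74 and Ciita. Neighbours stood apart at 1 place for H2-Aa and for H2-Eb1, where all values of the Clec10a and Mgl2 cluster lay above those of conventional dendritic-like cells, and at 1 place for H2-DMb2, where conventional dendritic-like cells lay above macrophage-like cells. In all sums over cells, fewer cells with a transcript and fewer transcripts per cell cannot be told apart.

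**Figure D1:**
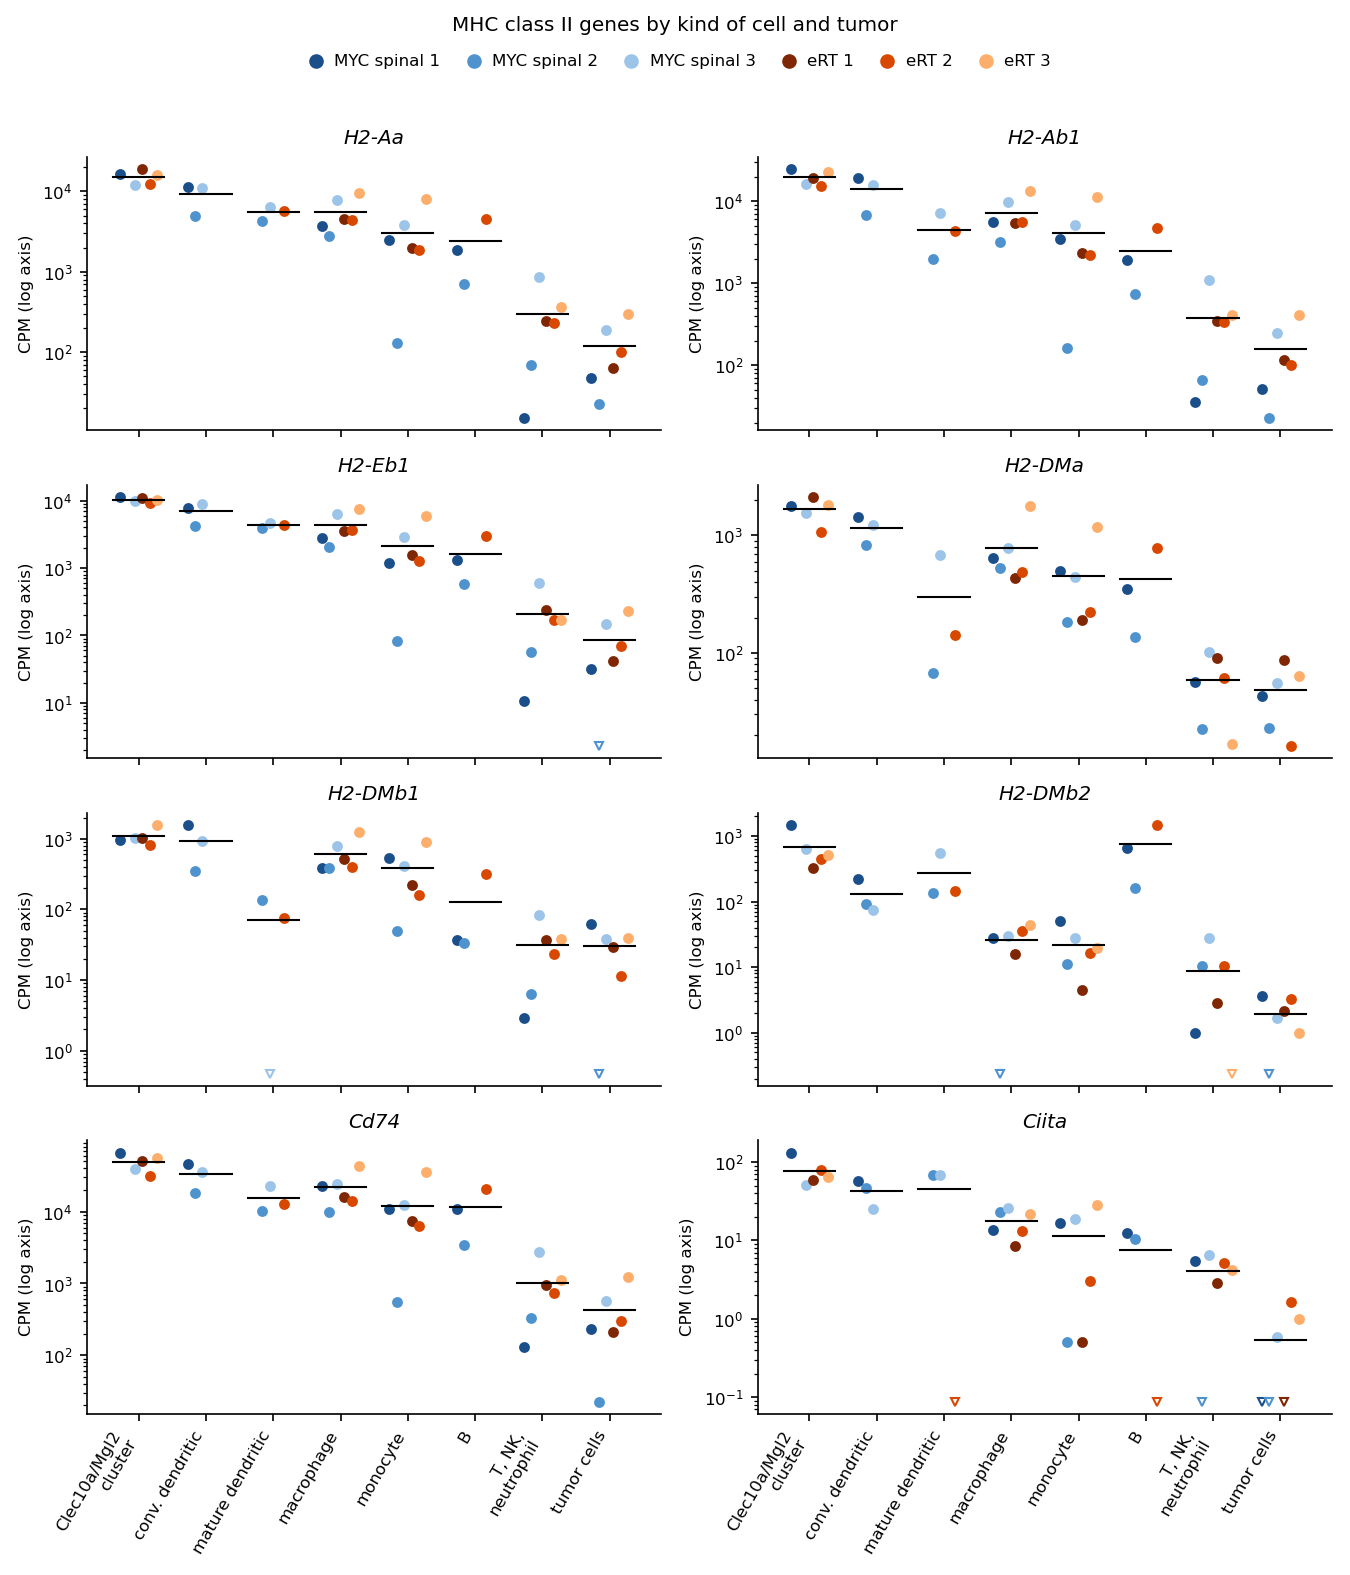
Level of each class II gene in 8 kinds of cells (T-like, NK-like and neutrophil-like cells joined), as CPM of the summed UMIs of a kind in 1 tumor (log axis), with a point for each tumor with at least 10 such cells, coloured by tumor, a black line at the mean over tumors and open triangles at the bottom for 0 UMIs. H2-Ab1 ran from a mean of 19693 CPM in the Clec10a and Mgl2 cluster to 157 CPM in tumor cells, and H2-DMb2 was the gene whose highest mean lay in B-like cells.

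Macrophage-like cells held more class II RNA than monocyte-like cells of the same tumor in all 6 tumors for H2-Aa, H2-Ab1, H2-Eb1, H2-DMa and Cd74, yet only H2-DMa passed the test. H2-DMa, the α chain of the DM peptide exchanger, stood at 644, 524 and 779.6 CPM in the macrophage-like cells of MYC spinal 1, 2 and 3. The same cells of eRT 1, 2 and 3 held 432, 491 and 1791 CPM. In monocyte-like cells it stood at 499, 182 and 445 CPM and at 191, 221 and 1191 CPM. It was therefore higher in macrophage-like cells within each tumor, while the 2 sets of values overlapped, with eRT 3 high in both. The difference was 0.92 on the log2 scale (SE 0.14, 95% interval 0.60 to 1.24, adjusted p = 0.0413, edgeR's quasi-likelihood test with the tumor as a block). Of 6216 genes tested, 4 were called higher (0.0644%) and 8 lower (0.129%) at an adjusted p under 0.05, and 1 of the 8 class II genes was among the 4. The call was lost without MYC spinal 2 (0.0731), without MYC spinal 3 (0.153), without eRT 1 (0.131), without eRT 2 (0.127) and without eRT 3 (0.102), where each number is the adjusted p. It was kept with another random seed of the clustering, where 0.293% of genes were higher and 0.505% lower.

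The chain genes moved further but varied more. H2-Aa stood at 3730.1, 2828 and 7749 CPM in the macrophage-like cells of the MYC spinal tumors and at 4498, 4405 and 9603 CPM in the same cells of the eRT. In monocyte-like cells H2-Aa stood at 2476, 128 and 3808 CPM and at 1994, 1873 and 8084 CPM. The gap was widest in MYC spinal 2, whose 1961 monocyte-like cells held the lowest level of the 6 tumors, and narrowest in eRT 3. The differences were 1.32 (SE 0.43, adjusted p = 0.301) for H2-Aa, 1.34 (SE 0.41, adjusted p = 0.270) for H2-Ab1, 1.54 (SE 0.43, adjusted p = 0.219) for H2-Eb1 and 1.37 (SE 0.39, adjusted p = 0.236) for Cd74. H2-DMb1 differed by 0.997 (SE 0.30, adjusted p = 0.254), with 5 of 6 tumors higher, H2-DMb2 by 0.64 (adjusted p = 0.591) and Ciita by 0.84 (adjusted p = 0.684), each with 4 of 6 tumors higher. The median over the 8 genes was 1.16, against -0.0030 over all genes tested. With every gene of at least 1 UMI entered in the fit, more genes were tested than the 6216 above. The calls over all genes then rose from 12 to 404, and 6 of the 8 class II genes were among them. The share of all genes called in that fit is not given here, so this count is no result about class II genes. The cells themselves were also compared after thinning each to 1000 UMIs: 77.3% to 98.6% of macrophage-like cells and 32.0% (MYC spinal 2) to 96.4% (eRT 3) of monocyte-like cells held a class II UMI, and the share was higher in macrophage-like cells within each tumor. In MYC spinal 2 only 13 of the 139 macrophage-like cells were deep enough for this, and MYC spinal 1 gave 29 monocyte-like cells.

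Cd74, whose product is the invariant chain, took the most UMIs of the 8 genes. It stood at 22584, 9881 and 24511 CPM in the macrophage-like cells of MYC spinal 1, 2 and 3. The same cells of eRT 1, 2 and 3 held 16111, 13977 and 43900.2 CPM. In monocyte-like cells it stood at 10752, 551 and 12531 CPM and at 7317, 6250.1 and 35441 CPM. Tumor eRT 3 was the highest in both kinds, and the 8 genes together took 7.75% of the UMIs of its macrophage-like cells and 6.28% of those of its monocyte-like cells, against 1.89% to 4.996% and 0.117% to 2.52% in the other tumors. The low value in each kind belonged to MYC spinal 2. Ciita, the co-activator, was sparse throughout: 13.7, 23.3 and 25.6 CPM in the macrophage-like cells of the MYC spinal tumors and 8.37, 13.01 and 21.9 CPM in the same cells of the eRT.

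Dendritic-like cells, the conventional and mature kinds joined, held more H2-DMb2 than macrophage-like cells, and no other class II gene passed the test. H2-DMb2, the second β chain of DM, stood at 279, 103 and 274 CPM in the dendritic-like cells of MYC spinal 1, 2 and 3. Those of eRT 2 held 143 CPM, and these 4 values rest on 45, 6, 19 and 17 UMIs. In macrophage-like cells it stood at 27.5, 0 and 29.7 CPM and at 15.8, 35.8 and 44.3 CPM. All dendritic values lay above all macrophage values, and the 0 in MYC spinal 2 allows up to 34.9 CPM (3 UMIs). Over the 4 tumors with 10 or more dendritic-like cells, the difference was 3.04 (SE 0.40, 95% interval 2.12 to 3.95, adjusted p = 0.00175), and of 1695 genes tested 84 were called higher (4.96%) and 124 lower (7.32%). H2-DMb2 was 1 of 7 class II genes tested, and it was called with each of the 4 tumors left out in turn and with another random seed, where 6.15% of genes were higher and 7.94% lower.

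The chain genes were not called between these kinds: H2-Aa differed by 0.69 (SE 0.19, adjusted p = 0.0507), H2-Eb1 by 0.67 (adjusted p = 0.0721), H2-Ab1 by 0.57 (adjusted p = 0.169) and Cd74 by 0.43 (adjusted p = 0.159). H2-DMa differed by 0.017 (SE 0.37, adjusted p = 0.992) and H2-DMb1 by -0.28 (SE 0.50, adjusted p = 0.789). The 9 macrophage markers summed to 86.0 to 261 CPM in these cells, with Ms4a7 and Trem2 at 0. When the Clec10a and Mgl2 cluster was added to the dendritic-like cells, all 6 tumors could be used and 6 of the 8 genes were called higher, beside 179 of 3011 genes (5.94%) called higher and 7.90% lower. In that cluster H2-DMb2 reached 1462 CPM in MYC spinal 1, 643 CPM in MYC spinal 3 and 324, 447 and 521 CPM in eRT 1, 2 and 3, and Ciita reached 131 and 50.9 CPM and 58.9, 79.4 and 65.1 CPM, above every value of Ciita in macrophage-like cells. The differences were then 3.85 (SE 0.25, adjusted p = 5.1e-06) for H2-DMb2, 1.54 (SE 0.28, adjusted p = 0.0035) for Ciita, 1.03 for H2-Aa, 1.003 for H2-Ab1, 0.92 for H2-Eb1 and 0.76 (SE 0.18, adjusted p = 0.0153) for Cd74. Adding this cluster was decided after its genes had been seen, and H2-DMb2 was among its leading genes.

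B-like cells carried the DM genes in a different ratio from macrophage-like cells. H2-DMb2 stood at 644 and 163 CPM in the B-like cells of MYC spinal 1 and 2. The B-like cells of eRT 2 held 1469.6 CPM, and other tumors had fewer than 10 such cells. H2-DMb1 stood at 37.1, 33.6 and 315 CPM in these 3 tumors. In macrophage-like cells of the same tumors H2-DMb1 stood at 389, 384 and 397 CPM. H2-DMb2 made up 94.5%, 82.9% and 82.4% of the UMIs of both β chain genes in B-like cells, and from 0% to 8.27% in the macrophage-like cells of all 6 tumors, so the values of these kinds did not overlap. The share lay between 23.9% and 60.3% in the Clec10a and Mgl2 cluster, apart from both, and between 7.5% and 21.1% in conventional dendritic-like cells, which overlapped with macrophage-like cells. In mature dendritic-like cells it was 50%, 100% and 65.4% in MYC spinal 2, MYC spinal 3 and eRT 2, from few UMIs. A high share was therefore not limited to B-like cells. The unplaced H2-DMb1 reads named above enter every share.

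**Figure D2:**
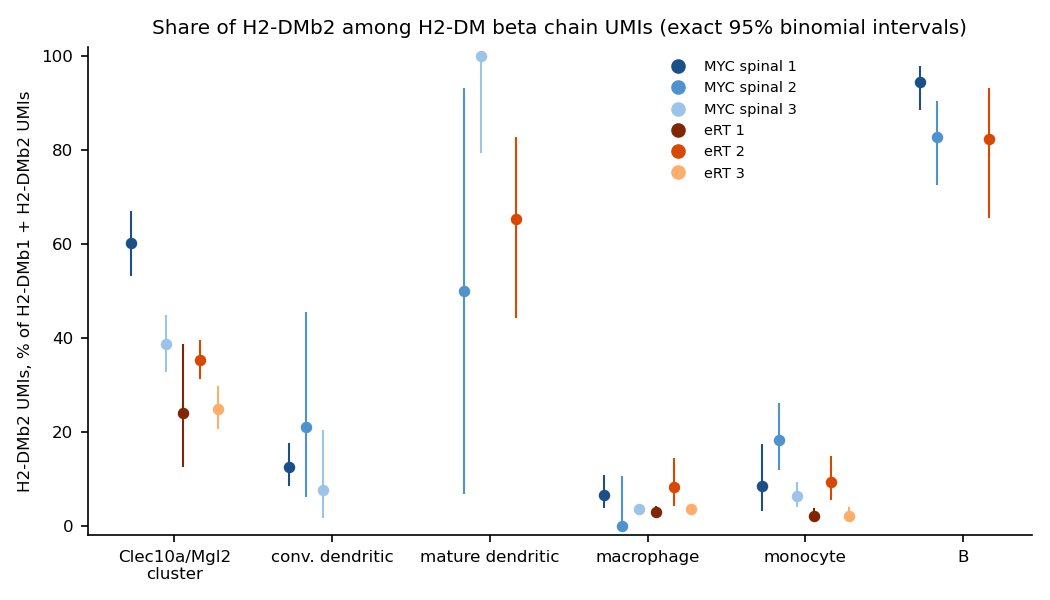
Percent of the UMIs of H2-DMb1 and H2-DMb2 together that belonged to H2-DMb2, by cell kind, with 1 coloured point for each tumor and exact 95% binomial intervals. B-like cells sit at 82.4% to 94.5%, macrophage-like cells at 0% to 8.27%, and the Clec10a and Mgl2 cluster between them. Mature dendritic-like cells sit at 50% to 100%, rest on few UMIs and have wide intervals.

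Against macrophage-like cells, B-like cells were higher in H2-DMb2 by 4.55 (SE 0.52, adjusted p = 0.000627) and lower in 4 of the 7 class II genes tested. These were H2-DMb1 (-2.89, SE 0.61, adjusted p = 0.0116), H2-Ab1 (-1.64, SE 0.35, adjusted p = 0.0116), H2-Eb1 (-1.39, SE 0.33, adjusted p = 0.0202) and H2-Aa (-1.32, SE 0.36, adjusted p = 0.0363). Cd74 (-0.997, adjusted p = 0.0771) and H2-DMa (-1.10, adjusted p = 0.174) were not called. Over all 2944 genes tested, 87 were called higher (2.96%) and 333 lower (11.3%). Without MYC spinal 2 the calls of H2-Aa (adjusted p = 0.107, edgeR) and H2-Eb1 (0.0510) were lost. Of the 4 lower genes, 2 were called with DESeq2 (H2-Ab1 and H2-DMb1), 1 without TMM scaling (H2-DMb1) and 0 with no replicate block, while H2-DMb2 was called higher under all 3. With another random seed Cd74 was called as well (0.0311), beside 3.05% of genes higher and 10.7% lower.

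The B-like sums were mixed: over the 3 tumors the 9 B cell markers summed to 3410 to 7033 CPM. The 5 plasma cell markers, Jchain among them, summed to 4199 to 11747 CPM and the 9 neutrophil markers to 6.19 to 14650 CPM. The B-like cells of the MYC spinal tumors fell into 2 clusters, one with Ms4a1 and Jchain and one with Vpreb1, Vpreb3 and Igll1, genes of the surrogate light chain of B cell precursors. In MYC spinal 1, H2-Ab1 stood at 5213 CPM in the Ms4a1 and Jchain cluster and at 19.7 CPM, from 2 UMIs, in the Vpreb1 and Vpreb3 cluster. In MYC spinal 2 the respective levels were 1296 and 302 CPM. For Cd74 they were 29405 and 88.5 CPM in the first tumor and 7157 and 646 CPM in the second. The Vpreb1 and Vpreb3 cluster was lower in every class II gene in both tumors, with 0.0167% and 0.142% of its UMIs from the 8 genes against 4.60% and 1.16% in the other. Without it, 1 class II gene was called lower in B-like than in macrophage-like cells, H2-DMb1 by -1.89 (SE 0.45, adjusted p = 0.0104), and 1 higher, H2-DMb2 by 5.47 (adjusted p = 1.75e-05), beside 7.58% of 1609 genes called higher and 14.1% lower, and Cd74 differed by -0.010 (SE 0.22).

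**Figure D3:**
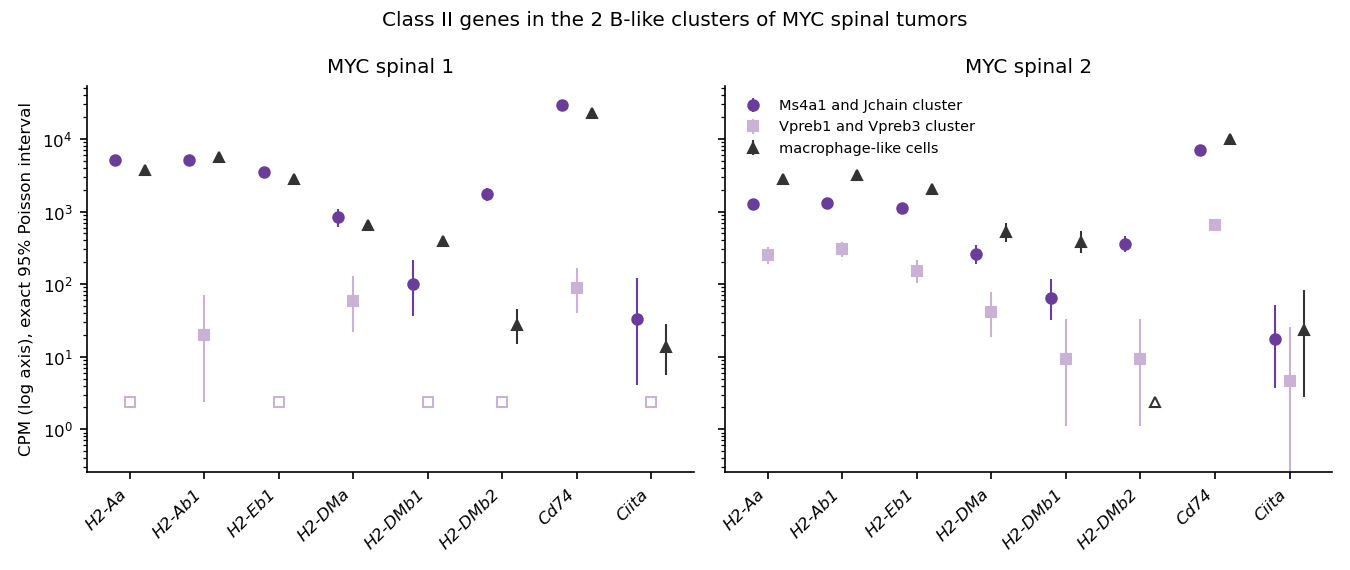
Class II levels (CPM of summed UMIs, log axis) in the Ms4a1 and Jchain cluster (circles), the Vpreb1 and Vpreb3 cluster (squares) and macrophage-like cells (triangles) of MYC spinal 1 and 2, with exact 95% Poisson intervals and open markers at the bottom for 0 UMIs. In both tumors the squares lie below the circles for all 8 genes, for Cd74 at 88.5 against 29405 CPM in MYC spinal 1 and 646 against 7157 CPM in MYC spinal 2.

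Tumor cells held little class II RNA, and their levels were set against those of cells of the same tumors that are known largely to lack it. T-like, NK-like and neutrophil-like cells were pooled as that reference. H2-Ab1 stood at 51.9, 22.7 and 248 CPM in the tumor cells of MYC spinal 1, 2 and 3. The same cells of eRT 1, 2 and 3 held 115, 101.9 and 405 CPM. In the reference cells it stood at 35.3, 66.8 and 1088 CPM and at 342, 336 and 409 CPM. Tumor cells were lower in 5 of 6 tumors, and MYC spinal 1 was the exception. They were lower by little in eRT 3, and the gap in eRT 1 and the order in eRT 3 hung on those few neutrophil-like cells. The difference was -1.23 (SE 0.40, 95% interval -2.12 to -0.35, adjusted p = 0.0382), and H2-Ab1 was the only 1 of 6 class II genes tested that was called, where 1025 of 5620 genes were called lower (18.2%) and 772 higher (13.7%). With 1 of 6 lower and 0 of 6 higher, the counts over the class II genes were near those shares. The call was lost without MYC spinal 2 (adjusted p = 0.0979, edgeR), MYC spinal 3 (0.170), eRT 1 (0.140) or eRT 2 (0.135), and without TMM scaling (0.0682). How many class II genes were called lower depended on the borders of the clusters. With another random seed of the clustering 5 of the 6 were, H2-Ab1 among them (-1.75, adjusted p = 0.00424), beside 13.8% of genes higher and 18.6% lower, and with a resolution of 0.4 none was (H2-Ab1 -0.75, adjusted p = 0.286). In tumor cells with no UMI of 5 immune genes 4 of the 6 were called lower, where 13.1% of all genes were higher and 14.8% lower, but this removes cells with immune RNA from the tumor side only and so lowers class II there by its own rule.

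The other differences were -1.11 (SE 0.48, adjusted p = 0.108) for H2-Aa, -1.14 (SE 0.57, adjusted p = 0.156) for H2-Eb1, -1.44 (SE 0.56, adjusted p = 0.0769) for Cd74, -0.57 (SE 0.40, adjusted p = 0.316) for H2-DMa and -0.0036 (SE 0.93, adjusted p = 0.999) for H2-DMb1. H2-DMb2 (1.0045 to 3.58 CPM in 5 tumors and 0 in MYC spinal 2) and Ciita did not pass the filter on low counts. Ciita had 9 UMIs in the 2654 tumor cells of all tumors, 0.686 CPM (95% Poisson interval 0.314 to 1.30), in 9 cells (0.339%), of which 8 also held a UMI of Ptprc, Tyrobp or C1q, as did 1345 (50.7%) of all tumor cells. Such intervals cover counting error only.

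The share of tumor cells with any class II UMI reached 59.2%, 28.6% and 76.4% in MYC spinal 1, 2 and 3, and 87.0%, 46.8% and 90.7% in eRT 1, 2 and 3, at medians of 2018 to 5970 UMIs per cell. In T-like cells it was 27.3%, 25.7% and 58.3% and 75.0%, 42.0% and 72.1%, at medians of 505 to 2220.5. After thinning to 1000 UMIs the shares were 23.5%, 7.69% and 34.7% and 44.9%, 23.3% and 54.3% in tumor cells and 17.7%, 41.2% and 40.8% and 45%, 35.0% and 60.1% in T-like cells. At 1000 UMIs the tumor cells lay below or level with T-like cells in every tumor but MYC spinal 1, and in eRT 1 above NK-like cells (42.6%). At 500 UMIs the tumor cells of eRT 1 also lay above T-like cells (26.1% against 22.5%), by less than the counting error of 69 and 40 cells. In MYC spinal 2 only 17 of the 183 T-like cells were deep enough for 1000 UMIs.

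**Figure D4:**
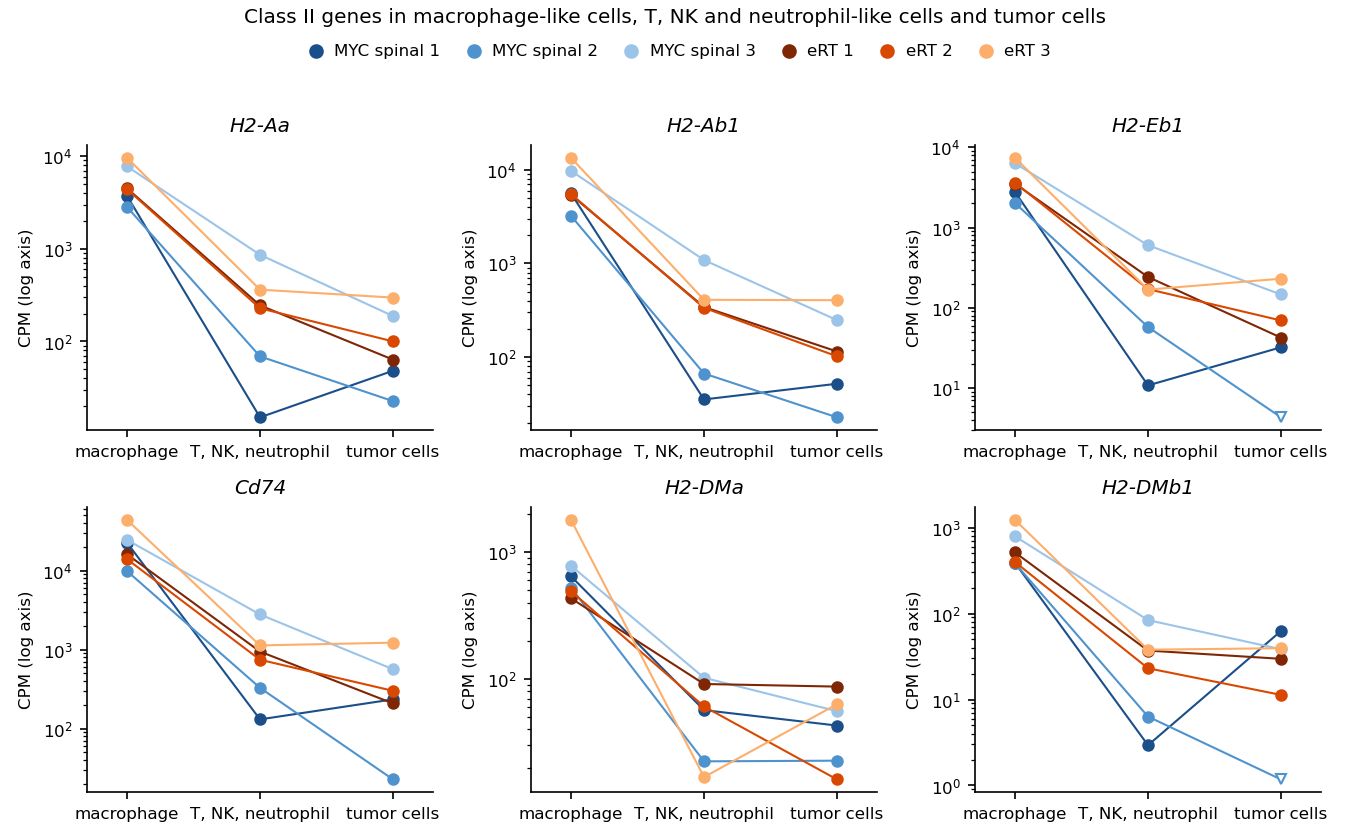
Level of 6 class II genes in macrophage-like cells, in the T-like, NK-like and neutrophil-like cells and in the tumor cells of the same tumor (CPM of summed UMIs, log axis), with the points of 1 tumor joined by a line and coloured by tumor and open triangles at the bottom for 0 UMIs. For H2-Ab1 the tumor cells lie at 22.7 to 405 CPM and the reference cells at 35.3 to 1088 CPM, and MYC spinal 1 is the 1 tumor in which tumor cells lie higher.

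A second measure of background used the genes of macrophages themselves. The level of 10 macrophage genes in tumor cells was 1.69%, 7.24% and 11.5% of that in all cells of MYC spinal 1, 2 and 3. In the eRT it was 9.42%, 4.85% and 5.23%. The class II UMIs expected from this share were then compared with those counted. The share rests on macrophage genes, so RNA from other cells with class II may not be measured by it. In MYC spinal 1 dendritic-like cells held 11242, the Clec10a and Mgl2 cluster 10315 and B-like cells 2768 class II UMIs, against 18225 in macrophage-like cells. How far this raises a ratio was not tested. The 8 genes together gave 266 UMIs against 113 expected in MYC spinal 1, a ratio of 2.35 (95% Poisson interval 2.07 to 2.65), 4 against 5.99 in the 14 tumor cells of MYC spinal 2 (0.668, 0.182 to 1.71) and 10481 against 10365 in MYC spinal 3 (1.01, 0.992 to 1.03). The ratio was 0.456 (0.402 to 0.516) in eRT 1, 0.809 (0.729 to 0.895) in eRT 2 and 0.827 (0.808 to 0.847) in eRT 3. With all tumor cells the interval lay above 1 in MYC spinal 1 only, and 2 cells described next held 52.6% of the UMIs counted there. Without the tumor cells with the highest doublet scores, the ratio was 2.35 in MYC spinal 1, 1.88 (0.513 to 4.82) in MYC spinal 2 and 1.23 (1.07 to 1.40) in eRT 1, so that the interval of eRT 1 also lay above 1. In the 78 tumor cells of MYC spinal 1 with no immune UMI the ratio was 2.67 (2.15 to 3.29), with the limit on that choice given below. With C1qa, C1qb and C1qc as the only macrophage genes, that of MYC spinal 1 was 1.93 and that of eRT 2 was 0.322.

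Few tumor cells held much of the class II RNA. In MYC spinal 1, 2 of the 103 cells (1.94%) held 140 of the 266 class II UMIs (52.6%), both with immune UMIs, and their macrophage genes stood at 5305 CPM, against 102.6 CPM in its tumor cells with no class II UMI. In MYC spinal 3, 31 of 1646 cells (1.88%) held 44.9% of the UMIs, and in eRT 3, 19 of 621 cells (3.06%) held 61.2%. All of these cells also held immune UMIs, with macrophage genes at 7625 and 16983 CPM, against 435 and 561 CPM in cells with no class II UMI. In eRT 2 a single cell of 201 held 32.4% and 4 more held 31.8%, and in eRT 1, 4 of 69 cells held 19.8%, and each of these cells held immune UMIs as well. The reference cells were uneven too. Of the T-like cells, 1 held 374 of 1488 class II UMIs in eRT 2 and 1 held 220 of 1124 in MYC spinal 3. The 9 macrophage markers summed to 70.8 to 2519 CPM in the reference cells of the 6 tumors.

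By the measure of expected UMIs, H2-DMa and H2-DMb1 gave higher ratios than Cd74 in each of the 5 tumors other than MYC spinal 2. H2-DMa gave 10.4 times the expected UMIs in MYC spinal 1 (6.67 to 15.5), 2.76 times in MYC spinal 3 (2.51 to 3.02) and 5.08 times in eRT 1 (3.64 to 6.89), and 1.28 and 1.02 times in eRT 2 and 3. H2-DMb1 gave 23.95 times (16.7 to 33.3) in MYC spinal 1, 1.82 times (1.63 to 2.03) in MYC spinal 3 and 1.32, 1.25 and 0.915 times in the eRT, whereas Cd74 gave 1.99, 0.909, 0.330, 0.855 and 0.793 times in these 5 tumors. The limit of an expected number drawn from macrophage genes, given above, holds for these ratios too. The levels behind them were low. H2-DMa stood at 43.0, 22.7 and 55.7 CPM in the tumor cells of MYC spinal 1, 2 and 3, and eRT tumor cells held 87.1, 16.2 and 63.3 CPM. In the reference cells, taken in the same order of tumors, it stood at 56.8, 22.4, 102.2, 91.3, 60.7 and 16.9 CPM, so that tumor cells were lower in 4 tumors, level in MYC spinal 2 and higher in eRT 3. In MYC spinal 1 T-like cells held 85 UMIs of H2-DMa against 52 of H2-Ab1, and NK-like cells 28 against 13. Lower than the reference thus does not mean at background for H2-DMa, and whether reference cells make it was not tested. For H2-DMb1 the tumor cells of MYC spinal 1 stood at 62.6 CPM (35 UMIs in 103 cells) against 2.94 CPM in its reference cells, and those of the other tumors at 0 to 39.5 CPM against 6.33 to 83.9 CPM.

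Per 100 UMIs of H2-Aa, H2-Ab1, H2-Eb1 and Cd74, tumor cells held 2.82 to 20.3 UMIs of H2-DMa outside MYC spinal 2, macrophage-like cells 1.46 to 2.92 in all 6 tumors and reference cells 0.815 to 29.6. The respective values for H2-DMb1 were 1.83 to 17.1, 1.12 to 2.14 and 1.21 to 2.09. The ratios of H2-DMb1 in tumor cells thus lay above those of the reference cells in MYC spinal 1 (17.1 against 1.53), MYC spinal 3 (3.35 against 1.57), eRT 1 (6.93 against 2.09) and eRT 2 (1.98 against 1.56), and level with them in eRT 3 (1.83 and 1.83). Those of H2-DMa had no common direction: tumor cells lay below the reference cells in MYC spinal 1 (11.7 against 29.6) and eRT 2 (2.82 against 4.10), and above them in MYC spinal 3 (4.86 against 1.92), eRT 1 (20.3 against 5.14) and eRT 3 (2.93 against 0.815). These ratios were not tested over tumors. When tumor cells with any UMI of Ptprc, Tyrobp or C1q were left out, the DM ratios to the expected number rose (H2-DMa to between 1.93 and 30.7 and H2-DMb1 to between 1.74 and 57.6 outside MYC spinal 2), but this choice lowers the expected number by its own rule.

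**Figure D5:**
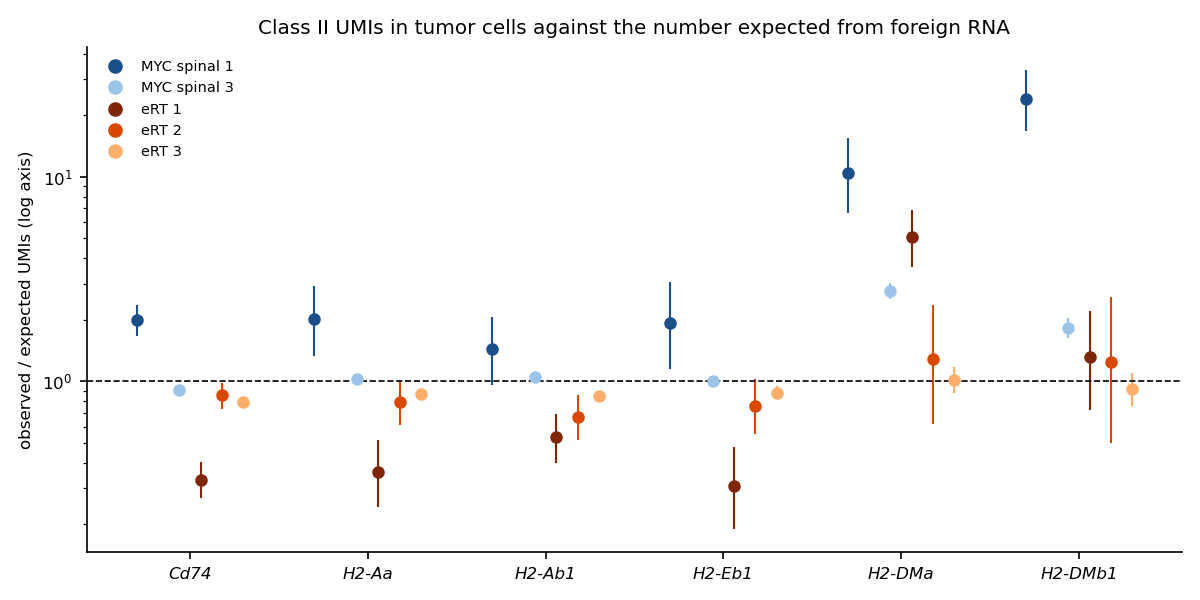
Class II UMIs counted in tumor cells over the number expected from the macrophage genes in the same cells (log axis), for each gene and tumor, with 95% Poisson intervals and a dashed line at 1; MYC spinal 2 (14 tumor cells) is left out. Cd74 lies between 0.330 and 1.99, while H2-DMa and H2-DMb1 lie at 10.4 and 23.95 in MYC spinal 1.

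The 2 groups of tumors showed no difference in class II RNA that passed the test. In macrophage-like cells 7 of the 8 genes were higher in eRT, by 0.48 to 0.61 on the log2 scale (Cd74 0.48, SE 0.73), and Ciita lower by -0.39, with an adjusted p of 0.9999 for each, and 0 of 7517 genes were called (0% in either direction; 114 at an unadjusted p under 0.05, and 2 by DESeq2). In monocyte-like cells Cd74 was 1.23 higher (SE 1.04) and H2-DMb2 -0.78 lower, with no class II gene called (adjusted p of 0.783 or more), while 4 of 6331 genes were called higher (0.0632%) and 32 lower (0.505%), and 0.0469% and 0.297% with another random seed. In tumor cells Cd74 was 1.26 higher (SE 0.996, 95% interval -1.05 to 3.57), and 0 of 5682 genes were called (0% in either direction; 193 at an unadjusted p under 0.05, and 20 by DESeq2). The signs in macrophage-like cells hung on tumor eRT 3. Without it 0 of the 8 genes were higher in eRT (Cd74 -0.35), and with the Cre line as a covariate 0 of 8 were (Cd74 -0.41). Dendritic-like and B-like cells reached 10 cells in 1 eRT tumor only and were not tested alone, and with the Clec10a and Mgl2 cluster the dendritic-like cells gave 0 calls among 2525 genes (0% in either direction; 105 at an unadjusted p under 0.05). The differences of macrophage-like from monocyte-like cells and of tumor cells from the reference were also compared between the groups, where 111 of 6216 and 0 of 5620 genes were called (198 of the latter at an unadjusted p under 0.05). No class II gene was among them, and the largest difference, of H2-DMb2 in macrophage-like against monocyte-like cells, was 1.52 (adjusted p = 0.206, edgeR).

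Of the other genes of class II presentation, 3 proteases were lower both in dendritic-like and in B-like cells than in macrophage-like cells. Of 6 genes for peptide loading and invariant chain processing, 5 were tested and 3 were lower in dendritic-like than in macrophage-like cells: Ctsl (-5.53) and Ctss (-2.14), the cathepsins L and S that trim the invariant chain, and Lgmn (-3.85), the asparaginyl endopeptidase of lysosomes, beside 7.32% of all genes tested that were lower there and 4.96% that were higher. The same 3 of 5 tested were lower in B-like cells, by -5.47, -4.14 and -5.91, beside 11.3% of all genes lower and 2.96% higher. H2-Ob, the β chain of DO, an inhibitor of DM, was the only 1 of 5 genes of further chains and partners that was tested there, and it was higher in B-like cells by 2.79. Of 8 genes of interferon γ signaling, 1 of 6 tested, Jak2, was higher in dendritic-like cells (2.97) and 1 of 5 tested, the receptor chain Ifngr2, lower in B-like cells (-3.59). In macrophage-like against monocyte-like cells 0 of the 6, 5 and 5 genes tested from the lists of loading and processing, transcription factors and interferon γ signaling were called.

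In tumor cells, 5 of the 6 interferon γ signaling genes tested were lower than in T-like, NK-like and neutrophil-like cells, beside the 18.2% of all genes given above. Among them were the receptor chain Ifngr1 (-3.02), the feedback inhibitor Socs1 (-2.78), the transcription factor Irf1 (-1.19) and the kinase Jak1 (-1.36). Of the transcription factors of class II promoters, Creb1 (-1.90) and the NF-Y subunit Nfyb (-0.77) were lower among 4 tested. Ctss was lower (-2.38) and Ctsl higher (3.96). The receptors of class II, Cd4 and Lag3, did not pass the filter in any comparison.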

How the data were processed

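Cells of 6 rhabdoid tumors were profiled with 10x 3′ single-cell RNA-seq, after the authors had lysed red cells and sorted live cells. The deposited tables hold raw UMI counts per gene and cell, made by the authors with Cell Ranger 2.0.2 on mm10 and limited to genes in at least 3 cells and cells with at least 50 genes. No table held columns of other samples.

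Cells under 200 genes or with over 25% of mitochondrial UMIs were removed. Cells were integrated per tumor group with Seurat 5.3.0 (2000 variable genes without the class II genes, 30 dimensions, 20 neighbors, resolution 0.8) and clusters were named where at least 3 fixed markers were raised. Clusters with raised Flt3 were clustered again, a step added after the clusters had been seen, as was the search for the spaced promoter motif. A cluster counted as tumor where Smarcb1 was under 0.25 of its level in other cells with at least 10 UMIs expected. Cell barcodes were replaced by numbers in the tables, so barcodes shared between libraries could not be counted. Scrublet (scanpy 1.11.5) called 20 of 22163 cells doublets (0.0902%) and was not relied on. An alternative left out the 843 cells with the highest scores.

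Counts were summed per kind and tumor where at least 10 cells were present. The sums were tested with edgeR 4.0.16 (TMM scaling, quasi-likelihood test, R 4.3.3) and Benjamini-Hochberg adjustment over all genes tested, and a gene was called at an adjusted p under 0.05. Kinds of cells were compared with the tumor as a block, since both sums came from the same animal. Replicate numbers of the MYC spinal and eRT tumors name different mice and pair nothing. DESeq2 1.42.0 was an alternative, as were no TMM scaling, every gene with at least 1 UMI, each tumor left out, stricter cells, other resolutions, no block and, chosen after seeing the data, another random seed of the clustering. In addition to the 8 members, genes were named from fixed lists of the pathway where they were called or their role was described, and the 5 genes most alike in pattern were named. The result of 1 listed gene is not reported here. The members and lists were chosen with earlier results of these data known. The tests were also tried on simulated counts. Levels are CPM of summed UMIs and are not scaled by transcript length. Figures were drawn with matplotlib 3.10.9.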

Additional observations from a re-analysis of the deposited data

How the results depend on the processing

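Depth limited the low genes most: Ciita and, outside B-like and dendritic-like cells, H2-DMb2 rest on few UMIs, and MYC spinal 2 gave 14 tumor cells. Of the values of single genes under an alternative, 634 kept their direction and their side of the threshold or moved little, 57 changed direction, 33 lost and 37 gained a call, and 17 moved further. Where none is named below, the cause was not tested. Another random seed of the clustering, tumor cells with no immune UMI, the Clec10a and Mgl2 cluster and the set without the Vpreb1 and Vpreb3 cluster were chosen after seeing the data. For these settings the shares of all genes called are given above. Counts of class II genes called under the other alternatives stand without such a share. They show only how the calls depend on the processing.

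In macrophage-like against monocyte-like cells 12 genes were called, among them 1 class II gene. The numbers were 109 and 2 with DESeq2, 404 and 6 with every gene of at least 1 UMI, and 0 and 0 with no replicate block. They were 52 genes with stricter cells, 83 at a resolution of 0.4, 55 at a resolution of 1.6 and 49 with another seed, and 0 class II genes without TMM scaling. Leaving out 1 tumor gave 0 to 19 genes and 0 to 1 class II genes.

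In dendritic-like against macrophage-like cells 208 genes were called. The number was 706 with every gene of at least 1 UMI, 365 at a resolution of 0.4, 96 with no replicate block and 417, with 6 class II genes, with the Clec10a and Mgl2 cluster, and 2 class II genes were called without the highest Scrublet scores. The sign of H2-DMa was not fixed: it was -0.024 with DESeq2, -0.022 without TMM scaling, -0.13 with every gene, -0.18 with stricter cells and -0.19 to 0.35 with 1 tumor left out. That of H2-DMb1 was 0.030 at a resolution of 0.4, 0.052 with no replicate block, 0.44 with the Clec10a and Mgl2 cluster and -0.92 to 0.14 with 1 tumor left out.

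In B-like against macrophage-like cells 420 genes were called, with 5 class II genes. The number was 644 with every gene and 278 with no replicate block. The class II genes called were 3 with DESeq2, 1 with no replicate block, 2 without TMM scaling, 2 without the Vpreb1 and Vpreb3 cluster and 3 to 6 with 1 tumor left out.

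In tumor cells 1797 genes were called, and 4010 with every gene. The class II genes called were 1 of 6 in the comparison as reported, 3 with DESeq2 and with every gene, 5 with another seed, and 4 without the highest Scrublet scores, against neutrophil-like cells alone and in tumor cells with no immune UMI. They were 0 with stricter cells, at a resolution of 0.4 and of 1.6, with no replicate block, without TMM scaling and against T-like and NK-like cells, and 0 to 4 with 1 tumor left out. H2-DMb1 was 0.043 with every gene, 0.026 with stricter cells, 0.11 at a resolution of 0.4, 0.15 without TMM scaling, 0.53 against T-like and NK-like cells and -0.73 to 0.69 with 1 tumor left out.

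The ratio of counted to expected UMIs without the highest Scrublet scores was 1.88 in MYC spinal 2, 1.23 in eRT 1, 0.681 in eRT 2 and 0.905 in eRT 3. In tumor cells with no immune UMI it was 2.67, 1.88 and 1.54 in MYC spinal 1, 2 and 3 and 2.54, 1.13 and 1.25 in eRT 1, 2 and 3, where the choice of cells itself lowers the expected number. With C1q genes alone it was 1.93 in MYC spinal 1, 0.621 in eRT 1 and 0.322 in eRT 2. Shares of tumor cells with a class II UMI fell with depth: thinned to 500 UMIs they were 14.6%, 0% and 23.3% in MYC spinal 1, 2 and 3, and 26.1%, 16.4% and 32.0% in eRT 1, 2 and 3, against 59.2% (MYC spinal 1), 76.4% (MYC spinal 3), 87.0%, 46.8% and 90.7% unthinned.

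Between eRT and MYC spinal, the signs were not stable. Genes called in macrophage-like cells were 0, and 2 with DESeq2. In monocyte-like cells 36 were called, and 164 with DESeq2, 192 with every gene, 22 with another seed, 55 without TMM scaling, 0 with the mouse model as a covariate and 0 to 1 with 1 tumor left out. In tumor cells 0 were called, and 20 with DESeq2. With the model as a covariate, macrophage-like cells gave -0.25 for H2-Aa, -0.36 for H2-Ab1, -0.25 for H2-Eb1, -0.75 for H2-DMa, -0.19 for H2-DMb1, -0.78 for H2-DMb2 and -0.41 for Cd74. Monocyte-like cells gave -0.10 for H2-Aa, -0.31 for H2-Ab1, -0.96 for H2-DMa, -0.53 for H2-DMb1 and -0.10 for Cd74, and tumor cells -0.67 for H2-Aa, -0.13 for H2-Ab1, -0.83 for H2-Eb1 and -0.50 for Cd74. Ciita in monocyte-like cells was 0.0058 with DESeq2 and 0.27 at a resolution of 0.4, where tumor cells gave -0.025 for H2-Aa, -0.65 for H2-DMa and -0.059 for Cd74. With 1 tumor left out, macrophage-like cells ranged from -0.095 to 0.94 for H2-Aa, -0.17 to 0.92 for H2-Ab1, -0.044 to 1.05 for H2-Eb1, -0.49 to 0.91 for H2-DMa, -0.22 to 0.92 for H2-DMb1, -0.0068 to 0.86 for H2-DMb2 and -0.35 to 0.76 for Cd74. Monocyte-like cells ranged from -0.13 to 1.92 for H2-Ab1, -0.61 to 1.13 for H2-DMa, -0.56 to 0.97 for H2-DMb1, -0.0026 to 1.91 for Cd74 and -2.46 to 1.92 for Ciita, and tumor cells from -0.076 to 2.70 for H2-Eb1. The mice of the 2 groups are unrelated, so the comparison between them has no pairing.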

Other observations

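Class II RNA was not spread evenly within the macrophage-like cells of the eRT. In 1 cluster of 41, 50 and 1299 cells H2-Ab1 stood at 17679.8, 5426 and 17196 CPM in eRT 1, 2 and 3, and in a second cluster, led by Fcrls and Cbr2, at 4038, 4701 and 8128 CPM. Tumor eRT 2 was the one in which the 2 clusters were close. A monocyte-like cluster led by the interferon-induced genes Rsad2, Cxcl10 and Ifit3 held 4179, 3017 and 14671 CPM of H2-Ab1, against 1703, 2070.5 and 10283 CPM in the other monocyte-like cluster. Class II genes were among the leading genes of the first cluster, although they were left out of the clustering. These clusters were defined on the same cells, so the values are a description.

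Across the 63 sums of 1 kind in 1 tumor, the genes outside the lists whose log2(CPM + 10) most resembled the mean of H2-Aa, H2-Ab1 and Cd74 were Ctsh (Pearson's r 0.825), Fgd2 (0.816), Pkib (0.806), Cd86 (0.804) and Hfe (0.788). Among the class II genes r was 0.982 for H2-Eb1, 0.860 for H2-DMb1, 0.851 for H2-DMa, 0.725 for Ciita and 0.713 for H2-DMb2. The sums of 1 tumor share a library and its depth.

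In cells that received no name, class II genes took 0.0703%, 0.555% and 1.04% of the UMIs in MYC spinal 1, 2 and 3 and 1.90%, 1.97% and 2.77% in eRT 1, 2 and 3. In osteoclast-like cells they took 0.240% in MYC spinal 3, 0.0899% in eRT 1 and 1.79% in eRT 3.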
